A study of Schizosaccharomyces pombe with 29 samples.

Results

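Fission yeast, Schizosaccharomyces pombe, transcribes many long non-coding RNAs (lncRNAs), and the count table of this study lists 1524 IDs of that kind. The RNAs described here are the 830 of them whose common name and product do not contain the word antisense, out of 6986 gene IDs in all; the other 694 are named antisense. By product, 321 are intergenic RNAs and 108 are intergenic RNAs marked as a possible alternative untranslated region (UTR) of a coding gene. A further 310 are non-coding RNAs with no further class, 46 are poly(A)-bearing RNAs, 24 are centromeric, 6 are sme2 and the nam RNAs, 6 are structured RNAs, 1 is of another class and 8 have no product. In the ASM294v3 annotation, which matched 753 of them by ID, 484 overlapped no coding gene, 152 overlapped one on the opposite strand only, 98 one on the same strand only and 19 coding genes on both strands. The label non-antisense therefore holds for the product texts and not for every position.

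As background, RNA polymerase II makes most lncRNAs, many of which are short-lived because the nuclear exosome and its cofactors degrade them, while some structured RNAs among the 830, such as srp7, are made by RNA polymerase III. The largest subunit of RNA polymerase II, Rpb1, ends in a carboxy-terminal domain (CTD) of repeated YSPTSPS heptads, and the phosphorylation of the heptads recruits elongation, 3' processing and termination factors. Several fission yeast lncRNAs act on a neighbour: transcription of an upstream lncRNA represses the phosphate genes pho1 and tgp1, and sme2 RNA promotes meiosis by holding the RNA elimination factor Mmi1 at its own locus.

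All strains were vegetative cultures in rich YES medium at 30 °C, and polyadenylated RNA was sequenced. The strains labelled Y1F, S2A, S2A-S7A, ALT-P3A, ALT-S5A and ALT-P6A are h+ with a NatMX-marked rpb1 of 29 heptads that carry the named change, with 3 libraries each. What the prefix ALT stands for is not in the labels. T4A is a 29-heptad allele with 3 libraries re-analysed from an earlier series, made with the same stranded kit on another sequencer, and its labels give no mating type. WT18 is shortened to 18 unchanged heptads and has 2 new h+ NatMX libraries and 2 earlier ones from an h- ade6 ura4-D18 leu1-32 strain, with column-purified RNA and another stranded kit. The controls are h+ NatMX WT29 strains with 29 unchanged heptads, sequenced as set 2 (named by the labels for T4A, the ALT alleles and WT18) and as set 1 (named for Y1F, S2A and S2A-S7A), with 3 libraries each. The columns of set 2 were matched to its record by elimination. Both control sets carry 1 lab strain number, and nothing in the labels says that the new libraries of a group came from separate cultures, so p-values measure the spread between libraries.

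The 31 libraries held 15.2 to 35.8 M counts each. A level is given in counts per M counts of the library (CPM) with all libraries scaled together by the TMM method of edgeR. Since polyadenylated RNA was sequenced, a level covers the RNA captured in that way and need not follow the whole amount of an RNA. A difference is a log2 fold change ± its standard error from edgeR's quasi-likelihood test, with p adjusted over all genes tested by the Benjamini-Hochberg method; rose and fell mean an adjusted p under 0.05, and called means in addition a change of at least 2-fold. Because the control sets differ from each other, each allele was fitted against the set its labels name and against the other one. The 2 earlier WT18 libraries stand apart from the 2 new ones in kit, mating type and markers, which cannot be told apart, and in the level of many lncRNAs, so the counts of WT18 calls against set 2 and the levels of the named lncRNAs are also given by pair; the other WT18 values are over the 4 libraries. Strand handling in the counting is not stated in the sources used here, so reads of overlapping or opposite genes may enter a lncRNA's count.

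Most of these lncRNAs were scarce. Of the 830, 130 had no count in any library, 469 passed the filter on low counts in at least 1 of 19 comparisons, 327 passed in all 19 and 361 in none. Per kb of exon in ASM294v3, the mean level over the 10 groups had a median of 0.786 CPM per kb (quartiles 0.0695 and 2.66, n = 753), against 30.5 CPM per kb in 5111 coding genes and 2.98 CPM per kb in 680 antisense lncRNAs. One RNA, prl53 (SPNCRNA.53, poly(A)-bearing), exceeded all the others with 2220 CPM per kb. The next on this scale were snoR61 (37.4), mrp1 (35.2), prl58 (31.1), SPNCRNA.1600 (31.1) and SPNCRNA.863 (25.6). All 830 together took 0.378 to 0.837% of the counts of a library. Without prl53 they took 0.482 and 0.426% in the new WT18 libraries and 0.308 and 0.344% in the earlier ones, against 0.188 to 0.218% in WT29 set 2 and 0.17 to 0.213% in WT29 set 1. The 7 substitution alleles lay between 0.115 and 0.214%.

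In the 7 substitution alleles more lncRNAs were called lower than higher, and a larger share of them was called lower than of all genes tested against the control set that the labels name. A lncRNA entered a test only where it was counted in enough libraries of the allele or of WT29, so these counts describe the RNAs tested and not all 830. Against WT29 set 1, 22 of 378 tested lncRNAs were called higher in Y1F and 77 lower (5.82 and 20.4%), where 4.68% of all genes tested were called higher and 5.11% lower. In S2A, 33 of 372 were called higher and 100 lower (8.87 and 26.9%), with 7.23% and 5.63% over all genes. In S2A-S7A, 33 of 376 were called higher and 92 lower (8.78 and 24.5%), with 5.89% and 9.61% over all genes.

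Against WT29 set 2, 29 of 368 lncRNAs were called higher in T4A and 96 lower (7.88 and 26.1%), where 5.27% of all genes were called higher and 7.89% lower. In ALT-S5A, 24 of 395 were called higher and 53 lower (6.08 and 13.4%), with 2.96% and 2.84% over all genes. In ALT-P6A, 22 of 393 were called higher and 65 lower (5.60 and 16.5%), with 3.12% and 3.23% over all genes. In ALT-P3A, 9 of 394 were called higher and 21 lower (2.28 and 5.33%), with 1.96% and 1.07% over all genes. With set 1 as its control, 29 of 397 were called higher and 38 lower (7.30 and 9.57%), with 5.51% and 3.68% over all genes. The ALT-P3A counts against set 2 also rest on single libraries: 25 were called higher without WT29 set 2 replicate 5, and 13 lower without ALT-P3A replicate 2.

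With the other control set, more lncRNAs were again called lower than higher in each of the 7 alleles. Against set 2, 34 of 381 were called higher and 80 lower in Y1F, with 7.18% and 7.03% over all genes. In S2A 32 of 369 were higher and 101 lower, with 7.11% and 7.42% over all genes. In S2A-S7A 32 of 375 were higher and 71 lower, with 6.16% and 7.13% over all genes. Against set 1, 23 of 369 were called higher and 84 lower in T4A, with 4.29% and 5.78% over all genes. In ALT-S5A 30 of 388 were higher and 58 lower, with 6.18% and 4.16% over all genes. In ALT-P6A 24 of 388 were higher and 61 lower, with 4.84% and 4.76% over all genes.

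**Figure D1:**
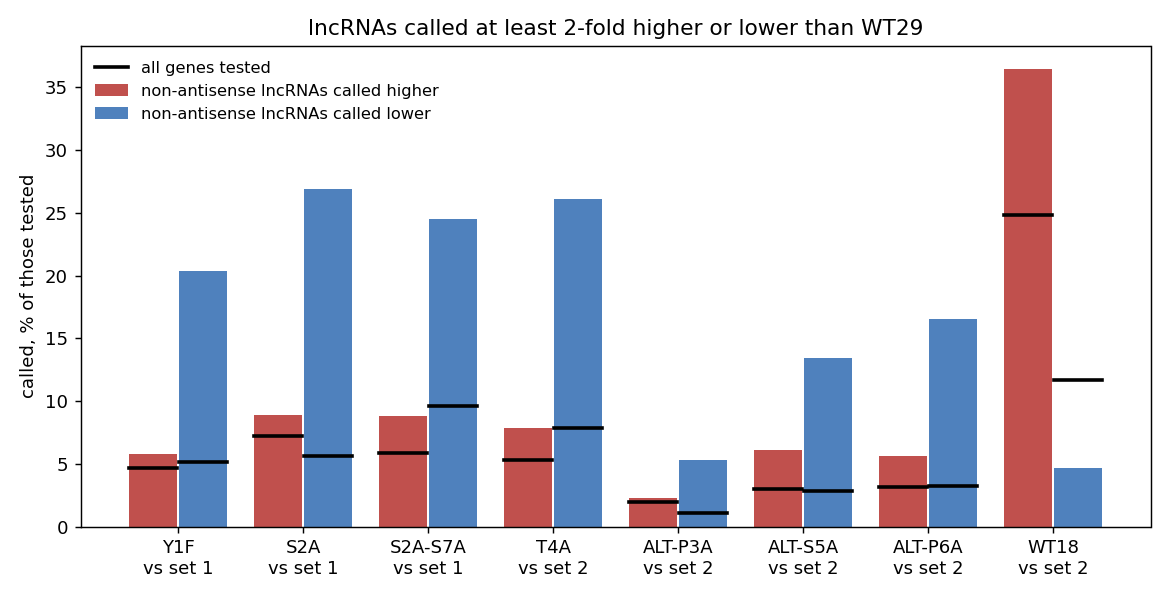
Share of tested lncRNAs called at least 2-fold higher (red) or lower (blue) in each allele against the WT29 set its labels name, in percent of the lncRNAs tested; black lines mark the same share over all genes tested. The blue bars stand above their lines in the 7 substitution alleles, up to 26.9% against 5.63% in S2A, and WT18 has the reverse with 36.5% higher and 4.70% lower.

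The same lean showed in the medians. The tested lncRNAs had a median log2 fold change of -0.29 for Y1F, -0.45 for S2A and -0.32 for S2A-S7A. It was -0.33 for T4A, -0.18 for ALT-S5A and -0.23 for ALT-P6A. The median over all genes tested lay between -0.03 and 0.02 in these comparisons. In ALT-P3A the lncRNA median was 0.02. When the tested lncRNAs were split by mean level over all libraries, calls of lower outnumbered calls of higher at low, middle and high level in the 7 alleles; in S2A they were 45 lower and 15 higher among the 124 scarcest and 19 lower and 9 higher among the 124 most abundant. The antisense lncRNAs, tested in the same fits, had another balance: 249 of 617 were called higher and 55 lower in S2A, and 189 of 610 higher and 63 lower in S2A-S7A, against set 1. Their balance turned with the control set in other fits: in T4A 66 of 634 were called higher and 165 lower against set 2, but 89 of 593 higher and 60 lower against set 1. Against set 2, 203 of 654 were called higher and 122 lower in S2A, and 154 of 650 higher and 136 lower in S2A-S7A.

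**Figure D2:**
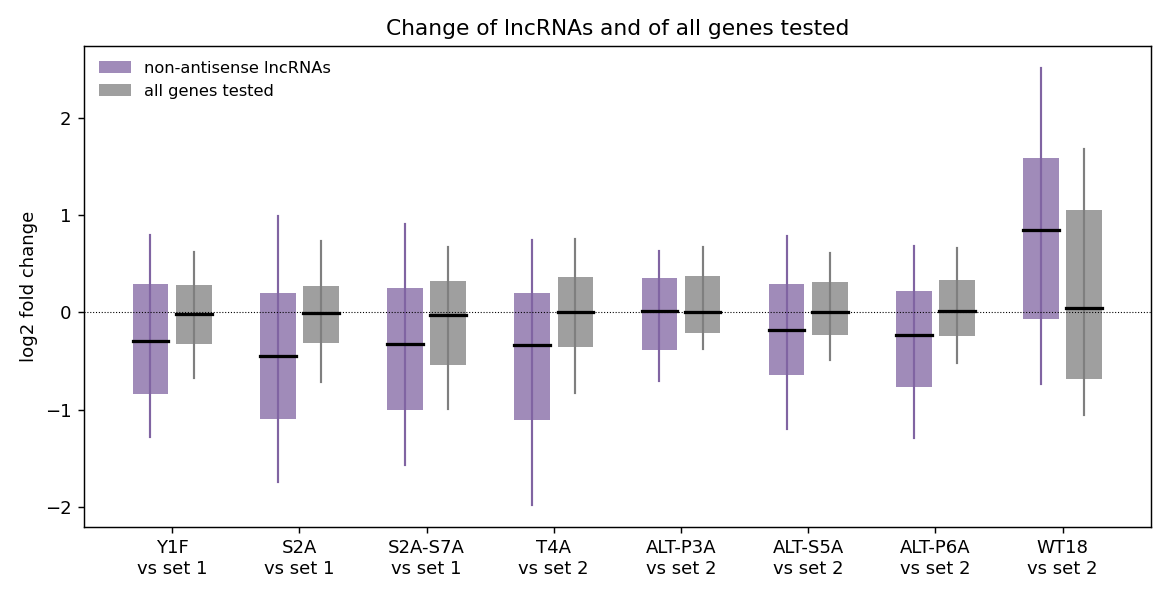
Log2 fold change of the tested lncRNAs (purple) and of all genes tested (grey) in each allele against the WT29 set its labels name; boxes span the quartiles, lines the 10th to 90th percentile and black bars the median. The lncRNA medians lie below those of all genes in 6 substitution alleles (-0.45 in S2A) and above in WT18 (0.85 against 0.05).

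Requiring a call in the same direction against both WT29 sets left 14 lncRNAs higher and 34 lower of 369 in Y1F, where 2.98% and 2.09% of all genes met the same rule. In S2A, 19 were higher and 51 lower of 354, against 4.88% and 3.01% of all genes. In S2A-S7A, 12 were higher and 38 lower of 357, against 3.35% and 3.07% of all genes. In T4A, 16 were higher and 47 lower of 353, against 2.48% and 2.70% of all genes. In ALT-P3A, 3 were higher and 5 lower of 378, against 0.842% and 0.297%. In ALT-S5A, 9 were higher and 20 lower of 379, against 1.40% and 1.17%. In ALT-P6A, 10 were higher and 23 lower of 374, against 1.32% and 1.34% of all genes.

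These calls were not held by one annotation class. Of the intergenic RNAs, which were 218 of the 354 lncRNAs tested in S2A, 8 were higher and 32 lower there against both sets. In T4A 9 of them were higher and 31 lower of 219. In S2A-S7A 0 were higher and 28 lower of 219. Among the possible alternative UTRs, which may report read-through or alternative ends of a coding gene, 6 were higher and 12 lower of 89 in S2A, but 7 were higher and 4 lower of 91 in S2A-S7A. The lncRNAs that overlapped no coding gene gave 9 higher and 24 lower of 187 in S2A and 9 higher and 24 lower of 185 in T4A. Of the 24 centromeric RNAs, 1 was tested, and it was called in no allele.

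A few lncRNAs moved alike in nearly all alleles. Of the 830, 607 were called against both sets in no allele, among them the 361 that passed the low-count filter in no comparison. Calls repeated over alleles were not counted for all genes, so no background is given for them. nam3 and SPNCRNA.472 were called higher in 6 alleles and SPNCRNA.774 and SPNCRNA.919 higher in 5. SPNCRNA.293 and SPNCRNA.703 were called lower in all 7 substitution alleles, and SPNCRNA.1316, SPNCRNA.1125, SPNCRNA.239 and SPNCRNA.291 lower in 6. WT18 is one of the alleles counted for nam3 and SPNCRNA.1125. The comparisons share the control libraries, so these counts are not independent of each other.

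nam3 (SPNCRNA.1696), one of a group of RNAs named for their association with the RNA-binding protein Mmi1, which marks meiotic RNAs for elimination, was higher in every library of the 7 substitution alleles and of WT18 than in any WT29 library. The libraries held 17.5, 17.2 and 14.7 CPM in Y1F, 21.7, 20.4 and 23.1 CPM in S2A, 11, 14.9 and 16.0 CPM in S2A-S7A and 31.1, 22.8 and 34.5 CPM in T4A, against 2.24, 3.59 and 3.41 CPM in WT29 set 2 and 2.28, 3.31 and 4.67 CPM in WT29 set 1. The 4 alleles lay far above both control sets, T4A highest and S2A-S7A lowest by mean. Its log2 fold change was 2.22 ± 0.20 in Y1F (adjusted p = 1.3e-06), 2.65 ± 0.24 in S2A (adjusted p = 2.8e-05) and 2.04 ± 0.26 in S2A-S7A (adjusted p = 0.00034) against set 1, and 3.20 ± 0.26 in T4A against set 2 (adjusted p = 1.3e-05). The ALT alleles were nearer to WT29, with means of 8.15 CPM in ALT-P3A, 5.41 CPM in ALT-S5A and 6.81 CPM in ALT-P6A, and changes against set 2 of 1.41 ± 0.19 (adjusted p = 0.00095), 0.78 ± 0.21 (adjusted p = 0.015) and 1.14 ± 0.22 (adjusted p = 0.0029). The authors' deposited tables give nam3 0.36 in ALT-P3A (adjusted p = 0.064), -0.22 in ALT-S5A (adjusted p = 0.31) and 0.10 in ALT-P6A (adjusted p = 0.66), below the values fitted here against set 2; the reason was not tested. Against set 1 the fitted changes were 1.25 ± 0.21 in ALT-P3A (adjusted p = 0.00031), 0.65 ± 0.24 in ALT-S5A (adjusted p = 0.04) and 0.98 ± 0.25 in ALT-P6A (adjusted p = 0.0073). Without ALT-S5A replicate 2 the change in ALT-S5A did not pass the test (0.67 against set 2, adjusted p = 0.065).

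SPNCRNA.472 lies head to head with bfr1, which encodes a drug efflux transporter, and before wee1, the mitotic inhibitor kinase, on the strand of wee1. It held 12.2, 10.2 and 11.4 CPM in Y1F, 7.41, 6.88 and 6.85 CPM in S2A-S7A and 8.59, 11 and 8.65 CPM in T4A, against 1.63, 1.91 and 2.05 CPM in WT29 set 2 and 1.63, 1.47 and 1.56 CPM in WT29 set 1. Its change was 2.81 ± 0.17 in Y1F (adjusted p = 2.6e-08) and 2.19 ± 0.17 in S2A-S7A (adjusted p = 2.8e-05) against set 1. Against set 2 it was 2.28 ± 0.20 in T4A (adjusted p = 2.6e-05) and 1.39 ± 0.17 in ALT-P3A (adjusted p = 0.00059). It reached 1.72 ± 0.19 in ALT-S5A (adjusted p = 4.1e-05) and 1.27 ± 0.20 in ALT-P6A (adjusted p = 0.00097). In S2A it was 0.65 ± 0.23 (adjusted p = 0.05), with 2.34, 2.74 and 2.34 CPM. The divergent gene bfr1 rose in the same 6 alleles, from 0.75 ± 0.07 in ALT-P3A against set 2 (adjusted p = 0.00014) to 2.16 ± 0.09 in Y1F against set 1 (adjusted p = 1.2e-09). Its means in these alleles were 1000 to 1300 CPM, against 604 CPM in WT29 set 2 and 281 CPM in WT29 set 1. The size of its change thus depends on the control set. The gene wee1 did not pass the test in any of these 6 fits. In S2A bfr1 turned with the control, with 0.78 ± 0.09 against set 1 (adjusted p = 0.00013) and -0.33 ± 0.10 against set 2 (adjusted p = 0.02).

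SPNCRNA.774, divergent from the Hsp110-type chaperone gene pss1, averaged 3.61 ± 0.493 CPM in Y1F, 2.71 ± 0.256 CPM in T4A, 1.84 ± 0.17 CPM in ALT-P3A, 2.62 ± 0.355 CPM in ALT-S5A and 2.1 ± 0.462 CPM in ALT-P6A, against 0.509 ± 0.112 CPM in WT29 set 2 and 0.851 ± 0.166 CPM in WT29 set 1 (SD, n = 3 each). It was called higher in these 5 alleles, with 2.03 ± 0.23 in Y1F against set 1 (adjusted p = 1.1e-05) and 2.36 ± 0.27 in T4A against set 2 (adjusted p = 0.00011), and not in S2A (-0.19 ± 0.34, adjusted p = 0.70). The intergenic SPNCRNA.919 was called higher in Y1F, S2A-S7A, T4A, ALT-S5A and ALT-P6A, reaching 2.08 ± 0.22 in ALT-P6A against set 2 (adjusted p = 0.0001), and its change in S2A was 0.01 ± 0.48 (adjusted p = 0.99).

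The falls that all 7 substitution alleles share were in SPNCRNA.293 and SPNCRNA.703. SPNCRNA.293 is divergent from pfl7, a flocculin family gene, and lies before the ABC transporter gene abc3. It held 0.0406 to 0.098 CPM in Y1F and no more than 0.564 CPM in any library of the 7 alleles, against 6.58, 7.34 and 6.82 CPM in WT29 set 2 and 0.837, 1.01 and 0.896 CPM in WT29 set 1. All libraries of the 7 alleles therefore lay below all WT29 libraries, but the control sets themselves differed by 2.91 ± 0.19 (set 2 over set 1, adjusted p = 8.1e-06). The change in Y1F was -3.84 ± 0.48 against set 1 (adjusted p = 2e-05) and -6.74 ± 0.29 against set 2 (adjusted p = 5.3e-09), and in ALT-P3A -3.94 ± 0.28 against set 2 (adjusted p = 2.3e-05) and -1.05 ± 0.38 against set 1 (adjusted p = 0.036). In the authors' deposited tables its fall passed their test in Y1F, S2A, S2A-S7A, ALT-S5A and ALT-P6A, and not in T4A (-1.42, adjusted p = 0.062) or ALT-P3A (-0.21, adjusted p = 0.78). Its neighbour pfl7 averaged 0.65 to 2.51 CPM in the 7 alleles, against 35.0 CPM in WT29 set 2 and 4.90 CPM in WT29 set 1.

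SPNCRNA.703 lies between the transcription factor gene moc3 and eng1, which encodes a cell separation glucanase, opposite to another coding ID. The control sets were not shown to differ in it (0.19 ± 0.14, adjusted p = 0.30). It held 3.63, 3.90 and 4.63 CPM in Y1F, 4.57, 3.90 and 4.68 CPM in S2A, 4.53, 3.48 and 3.61 CPM in T4A and 7.98, 6.33 and 6.99 CPM in ALT-P3A, against 17.7, 16.8 and 18.8 CPM in WT29 set 2 and 14.5, 17.2 and 15 CPM in WT29 set 1. No library of these alleles reached a WT29 library. The change was -1.99 ± 0.15 in Y1F (adjusted p = 2.6e-07), -1.85 ± 0.18 in S2A (adjusted p = 4.2e-05) and -1.50 ± 0.16 in S2A-S7A (adjusted p = 0.00015) against set 1. Against set 2 it was -2.24 ± 0.20 in T4A (adjusted p = 2e-05), -1.31 ± 0.14 in ALT-P3A (adjusted p = 0.00025), -1.58 ± 0.17 in ALT-S5A (adjusted p = 4.1e-05) and -1.69 ± 0.14 in ALT-P6A (adjusted p = 2.3e-05). The authors' deposited tables give falls of -1.49 to -2.43 in all 7 alleles. The divergent neighbour moc3 fell in all 7 alleles against the named set, by 0.39 ± 0.08 in Y1F (adjusted p = 0.0012) to 0.81 ± 0.10 in T4A (adjusted p = 0.00017), although in ALT-P3A it was at -0.11 ± 0.08 against set 1 (adjusted p = 0.27). The neighbour eng1 was at -0.01 ± 0.09 in S2A (adjusted p = 0.97) and -0.02 ± 0.16 in T4A (adjusted p = 0.92).

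SPNCRNA.1316, which overlaps a coding gene on the opposite strand, averaged 2.65 to 3.06 CPM in Y1F, S2A and S2A-S7A and 4.96 to 5.44 CPM in T4A, ALT-S5A and ALT-P6A, against 22.2 ± 1.13 CPM in WT29 set 2 and 12.7 ± 1.75 CPM in WT29 set 1 (SD, n = 3). ALT-P3A, at 10.9 ± 2.02 CPM, fell against set 2 (-1.01 ± 0.16, adjusted p = 0.0016) and did not pass against set 1 (-0.24 ± 0.16, adjusted p = 0.24). SPNCRNA.1125 averaged 0.867 CPM in S2A, 1.2 CPM in Y1F and 4.47 CPM in ALT-P3A, against 8.10 CPM in WT29 set 2 and 5.33 CPM in WT29 set 1. SPNCRNA.239 lies before lsk1, the gene of the CTD serine-2 kinase, and divergent from saf2; it averaged 0.274 to 0.58 CPM in the 6 alleles other than ALT-P3A, against 1.29 CPM in both control sets. Its fall in T4A did not pass without T4A replicate 1 (-1.02, adjusted p = 0.052). The gene lsk1 had no common direction: its change was 0.80 ± 0.10 in S2A against set 1 (adjusted p = 0.00015), -0.40 ± 0.12 in T4A (adjusted p = 0.026) and -0.14 ± 0.09 in ALT-S5A (adjusted p = 0.26) against set 2. SPNCRNA.291 was at 1.07 ± 0.357 CPM in S2A-S7A, against 6.13 ± 3.04 CPM in WT29 set 2 and 3.95 ± 0.925 CPM in WT29 set 1 (SD, n = 3), and the set 2 libraries were uneven at 2.91, 8.95 and 6.53 CPM.

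**Figure D3:**
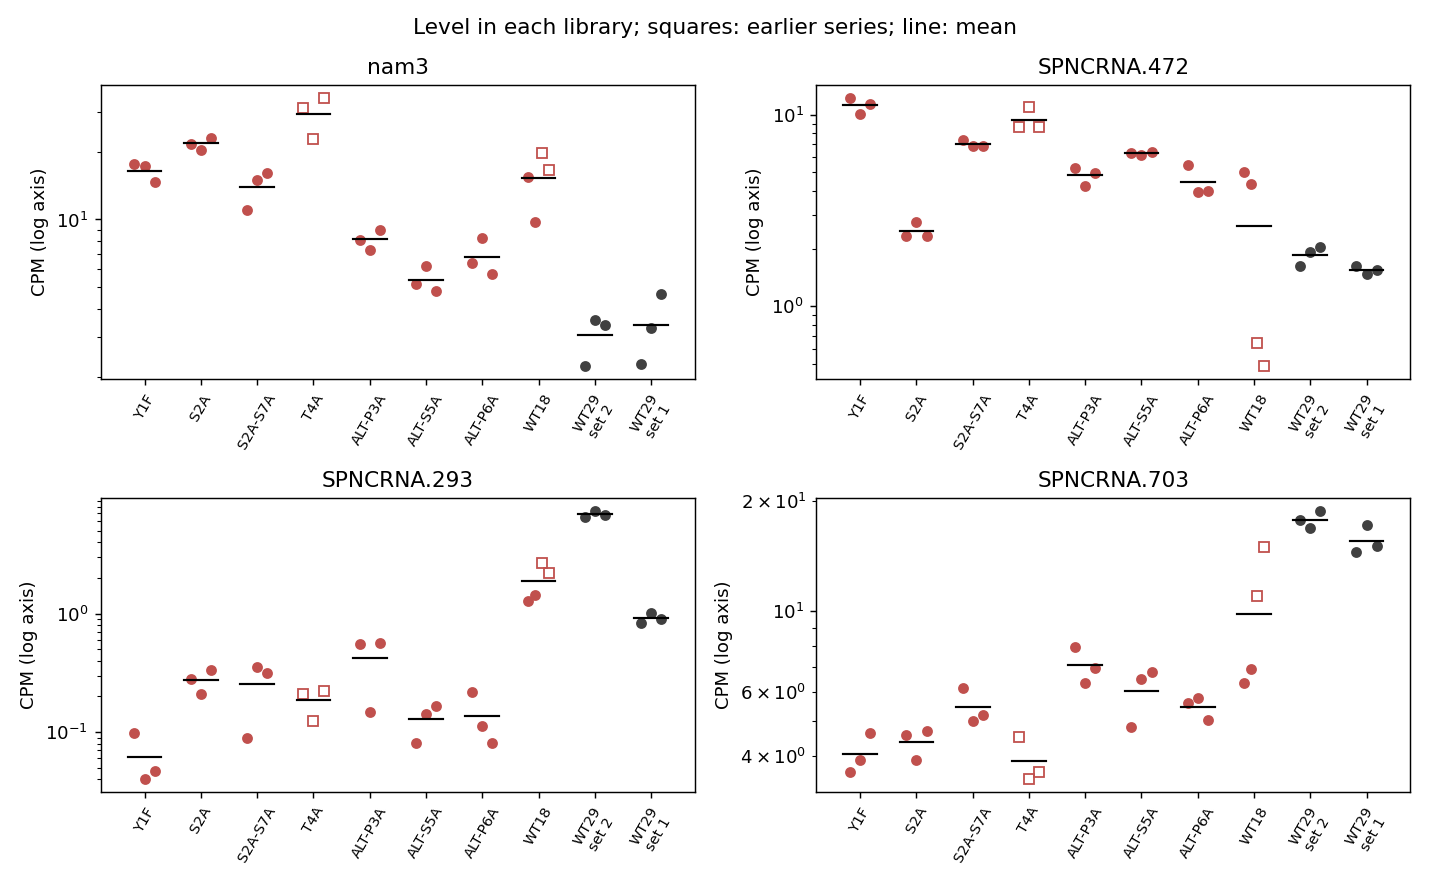
CPM of 4 lncRNAs in each library on log axes, by group; circles are new libraries, squares libraries of earlier series and lines group means. nam3 and SPNCRNA.472 lie above WT29 in most alleles, while SPNCRNA.293 and SPNCRNA.703 lie below WT29 in the 7 substitution alleles; the 2 WT29 sets differ in SPNCRNA.293 (means of 6.91 and 0.913 CPM).

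Other large changes were found in fewer alleles. The rises of SPNCRNA.1340 (3.50 ± 0.30 against set 1, adjusted p = 1.8e-05), SPNCRNA.1424 (3.00 ± 0.28, adjusted p = 2.9e-05) and SPNCRNA.1553 (2.25 ± 0.20, adjusted p = 2.5e-05) were among the largest in S2A, and SPNCRNA.1340 also rose in S2A-S7A (2.51 ± 0.27, adjusted p = 0.00015). SPNCRNA.1156 was called lower in 4 alleles, by -3.34 ± 0.30 in Y1F (adjusted p = 1.1e-06) and -2.74 ± 0.31 in S2A (adjusted p = 0.0001) against set 1 and by -3.52 ± 0.29 in T4A (adjusted p = 1.6e-05) and -1.68 ± 0.21 in ALT-P3A (adjusted p = 0.00063) against set 2, while it was at 0.10 ± 0.20 in ALT-S5A (adjusted p = 0.72). SPNCRNA.1313, next to pfl7 and mug14 and opposite to abc3, was called lower in Y1F, S2A-S7A, T4A, ALT-S5A (-3.11 ± 0.32 against set 2, adjusted p = 2.6e-05) and ALT-P6A (-2.78 ± 0.27, adjusted p = 6.7e-05). SPNCRNA.1157 was called lower in Y1F (-2.41 ± 0.21 against set 1, adjusted p = 9.9e-07), T4A, ALT-S5A and ALT-P6A, and SPNCRNA.743 in S2A-S7A (-2.53 ± 0.31, adjusted p = 0.00023), S2A and T4A. In T4A against set 2, SPNCRNA.784 (-3.54 ± 0.33, adjusted p = 3.4e-05) and SPNCRNA.779 (-3.12 ± 0.43, adjusted p = 0.00035) fell and SPNCRNA.1327 rose (2.06 ± 0.25, adjusted p = 0.00016). SPNCRNA.779 went the other way against set 1 in S2A (2.15 ± 0.23, adjusted p = 6.1e-05). SPNCRNA.1673 fell in ALT-S5A (-2.01 ± 0.29, adjusted p = 0.00036) and ALT-P6A (-2.21 ± 0.30, adjusted p = 0.00049), and meu3 rose in both (1.44 ± 0.27, adjusted p = 0.0021, and 1.35 ± 0.21, adjusted p = 0.00092). Each change in this paragraph that is described as called, risen or fallen was also called in the same direction against the other control set, except that of SPNCRNA.779 in S2A.

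omt3 (SPNCRNA.130) was nearly absent in S2A and low in ALT-P3A, but its level also differed widely between the control sets. The ASM294v3 annotation names it as a lncRNA of the meiosis-specific Smp foci; there it lies head to head with mei2, which encodes the RNA-binding protein that switches cells into meiosis, and before omt2 on the same strand. Its libraries held 2.45, 1.58 and 2.32 CPM in Y1F, 3.70, 1.76 and 2.06 CPM in S2A-S7A, 1.82, 0.931 and 3.03 CPM in T4A and 0.726, 0.245 and 0.451 CPM in ALT-P3A. In S2A it had 3, 0 and 1 counts, or 0.167, 0 and 0.0478 CPM. ALT-S5A held 13.2, 20.5 and 4.84 CPM and ALT-P6A 7.76 to 14.2 CPM, against 2.76, 2.58 and 1.8 CPM in WT29 set 2 and 30.2, 28.5 and 26.3 CPM in WT29 set 1. The groups thus ran from S2A through ALT-P3A to ALT-S5A and ALT-P6A, with WT29 set 2 among the low alleles and WT29 set 1 above all of them; T4A, Y1F, WT29 set 2 and S2A-S7A overlap.

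S2A and ALT-P3A were below both sets in omt3: S2A by -8.57 ± 0.39 against set 1 (adjusted p = 3.4e-07) and -5.01 ± 0.55 against set 2 (adjusted p = 9e-05). These estimates rest on 4 counts in S2A. ALT-P3A changed by -2.25 ± 0.33 against set 2 (adjusted p = 0.0013) and -5.83 ± 0.23 against set 1 (adjusted p = 6.1e-10). Y1F (-3.80 ± 0.17, adjusted p = 1.5e-09) and S2A-S7A (-3.47 ± 0.26, adjusted p = 2.7e-05) fell against set 1 but not against set 2 (-0.21 ± 0.23, adjusted p = 0.44, and 0.12 ± 0.31, adjusted p = 0.76). T4A likewise fell against set 1 (-3.89 ± 0.31, adjusted p = 1.2e-05) but not against set 2 (-0.32 ± 0.37, adjusted p = 0.52). ALT-S5A and ALT-P6A turned direction with the control: 2.41 ± 0.41 (adjusted p = 0.0011) and 2.17 ± 0.26 (adjusted p = 0.00024) against set 2, and -1.15 ± 0.32 (adjusted p = 0.01) and -1.42 ± 0.20 (adjusted p = 0.00021) against set 1. The authors' deposited tables give omt3 falls in all 7 substitution alleles, including -1.85 in ALT-S5A and -2.12 in ALT-P6A.

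The control sets differed in omt3 by -3.57 ± 0.20 (set 2 over set 1, adjusted p = 4.6e-06). Its neighbour mei2 differed the same way, by -2.60 ± 0.14 (adjusted p = 4.1e-06; means of 23.7 CPM in set 2 and 144 CPM in set 1). So did ste11, the transcription factor gene of sexual differentiation, with 44.8 CPM in set 2 and 265 CPM in set 1; whether the cultures differed in growth state was not tested. Within the alleles mei2 was lowest in S2A too, at 5.80 ± 0.755 CPM (SD, n = 3). Over the 10 group means on the log2 scale, the genes most like omt3 were SPNCRNA.1556 (r = 0.807), SPAC24B11.14 (0.807) and uso1 (0.801); mei2 ranked 6 of 6105 genes (0.79) and omt2 270 (0.492). These points share libraries and the gap between the control sets.

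mrp1 (SPNCRNA.82) is the RNA of RNase MRP, which cuts precursors of ribosomal RNA. Its values are of the RNA captured in polyadenylated libraries, and the amount of working RNase MRP RNA was not measured. Its libraries held 18.5, 16.2 and 18.8 CPM in Y1F, 22.9, 20.1 and 21.6 CPM in S2A-S7A and 6.07, 6.12 and 5.73 CPM in S2A. The level was higher with S7A added to S2A (S2A-S7A over S2A 1.87 ± 0.17, adjusted p = 0.00013). The ALT alleles held 6.91, 6.77 and 6.95 CPM in ALT-P3A, 22.4, 22.5 and 15 CPM in ALT-S5A and 30.4, 27 and 29.1 CPM in ALT-P6A, and T4A 15, 10.1 and 13.0 CPM, against 6.53, 4.46 and 4.09 CPM in WT29 set 2 and 14.5, 10.6 and 15.7 CPM in WT29 set 1. ALT-P6A lay above both control sets without overlap, as did Y1F and S2A-S7A at lower levels. It rose by 2.53 ± 0.18 against set 2 (adjusted p = 1.2e-05) and 1.07 ± 0.14 against set 1 (adjusted p = 0.00017). S2A-S7A rose by 2.13 ± 0.21 against set 2 (adjusted p = 1.2e-05) and 0.67 ± 0.17 against set 1 (adjusted p = 0.0094). ALT-S5A rose by 1.97 ± 0.23 against set 2 (adjusted p = 6.9e-05) and 0.54 ± 0.19 against set 1 (adjusted p = 0.031). The other alleles changed the call or the direction with the control. Y1F rose against set 2 (1.799, adjusted p = 8.1e-06), but its change against set 1 did not pass the test. It passed against set 1 with DESeq2 size factors (0.364, adjusted p = 0.047) and without WT29 set 1 replicate 3 (0.451, adjusted p = 0.003). S2A fell against set 1 (-1.20 ± 0.20, adjusted p = 0.0011) and not against set 2 (0.22, adjusted p = 0.45). T4A rose against set 2 (1.29 ± 0.25, adjusted p = 0.0025) and not against set 1 (-0.15, adjusted p = 0.60). ALT-P3A was at 0.47 against set 2 (adjusted p = 0.065) and fell by 0.99 ± 0.16 against set 1 (adjusted p = 0.00019). In the authors' deposited tables mrp1 is at 0.02 in ALT-P6A (adjusted p = 0.91), -0.50 in ALT-S5A (adjusted p = 0.00052) and 0.69 in S2A-S7A (adjusted p = 1.8e-05). Over the 10 groups it was most like SPAC26F1.07 (r = 0.858), SPNCRNA.989 (0.849) and gor1 (0.845).

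The other structured RNAs gave a mixed picture. For them too, the values are of RNA captured in polyadenylated libraries and not of the whole amount. srp7, the RNA of the signal recognition particle, held 7.62, 17.4 and 6.43 CPM in ALT-S5A and 10.1, 18.6 and 8.41 CPM in ALT-P6A, against 5.15, 2.02 and 2.44 CPM in WT29 set 2 and 5.12, 3.19 and 4.01 CPM in WT29 set 1. It rose by 1.70 ± 0.40 in ALT-S5A (adjusted p = 0.0077) and 1.99 ± 0.40 in ALT-P6A (adjusted p = 0.0033) against set 2; in both alleles replicate 2 was the highest library. Without WT29 set 2 replicate 6 the change in ALT-S5A did not pass the test (1.56, adjusted p = 0.051). rrk1, the RNA of RNase P, averaged 11.6 ± 1.74 CPM in ALT-S5A and 13.2 ± 0.449 CPM in ALT-P6A, against 4.86 ± 0.317 CPM in WT29 set 2 and 7.78 ± 1.48 CPM in WT29 set 1 (SD, n = 3 each). Its change was 1.23 ± 0.18 in ALT-S5A (adjusted p = 0.00042) and 1.45 ± 0.14 in ALT-P6A (adjusted p = 5.2e-05) against set 2. Against set 1 it was under 2-fold, at 0.56 ± 0.18 in ALT-S5A (adjusted p = 0.023) and 0.75 ± 0.15 in ALT-P6A (adjusted p = 0.0021). Every library of Y1F, S2A and S2A-S7A was below every WT29 library in rrk1, with means of 3.07, 2.82 and 3.41 CPM. It fell against set 1 in Y1F (-1.39 ± 0.18, adjusted p = 3.5e-05), S2A (-1.48 ± 0.26, adjusted p = 0.0014) and S2A-S7A (-1.17 ± 0.21, adjusted p = 0.0017). Against set 2 it fell by less in Y1F (-0.70 ± 0.17, adjusted p = 0.0039) and S2A (-0.81 ± 0.25, adjusted p = 0.025), and S2A-S7A was at -0.47 ± 0.20 (adjusted p = 0.075). The highest rrk1 libraries were the new WT18 ones, at 28.7 and 21.2 CPM, while the earlier WT18 libraries held 2.99 and 1.96 CPM. ter1, the telomerase RNA, was at 0.50 ± 0.17 in T4A (adjusted p = 0.036) against set 2 and was called in no substitution allele.

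**Figure D4:**
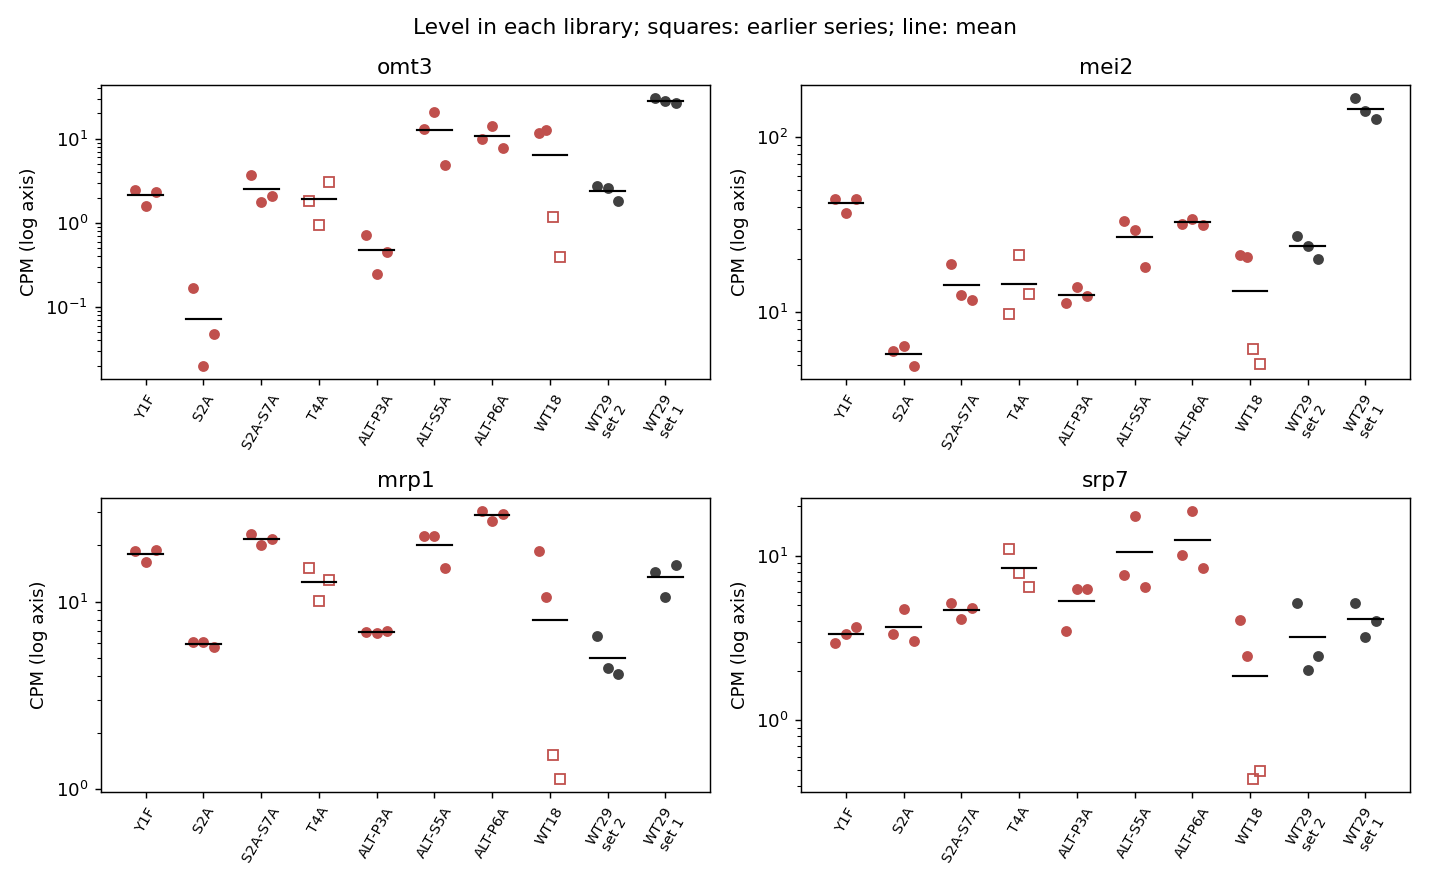
CPM of omt3, its neighbour mei2, mrp1 and srp7 in each library on log axes, by group; circles are new libraries, squares libraries of earlier series and lines group means, and a count of 0 is drawn at 0.02 CPM. omt3 and mei2 are highest in WT29 set 1 (144 CPM for mei2) and lowest in S2A, and mrp1 is highest in ALT-P6A.

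Of the other known RNAs, sme2, whose RNA helps cells enter meiosis, held 2.03, 3.54 and 2.41 CPM in T4A and 1.96, 1.83 and 2.70 CPM in Y1F, against 0.306, 0.412 and 0.292 CPM in WT29 set 2 and 0.79, 1.43 and 1.56 CPM in WT29 set 1. It rose in T4A by 2.87 ± 0.32 against set 2 (adjusted p = 0.00011) and 1.00 ± 0.32 against set 1 (adjusted p = 0.028), and in Y1F by 0.72 ± 0.27 against set 1 (adjusted p = 0.037). The highest sme2 libraries were the new WT18 ones, at 8.75 and 5.5 CPM, while the earlier WT18 libraries held 0.442 and 0.228 CPM. nam1, next to the mating pathway kinase gene byr2 on the same strand, was called lower in Y1F alone (-1.11 ± 0.13 against set 1, adjusted p = 1.5e-05); byr2 was at 0.73 ± 0.12 there against set 1 (adjusted p = 0.0003) and 0.07 ± 0.12 against set 2 (adjusted p = 0.65). nam2 rose in Y1F (1.06 ± 0.16, adjusted p = 8.3e-05) and S2A (1.09 ± 0.25, adjusted p = 0.0067) and fell in ALT-P6A against set 2 (-0.69 ± 0.15, adjusted p = 0.0051). prl53, the most abundant of the 830, overlaps the coding ID SPAC27E2.11c on the same strand, whose own level was 0.0356 to 0.462 CPM. It averaged 7200 ± 398 CPM in S2A, 6870 ± 366 CPM in S2A-S7A and 2270 ± 158 CPM in ALT-P6A, against 2690 ± 102 CPM in WT29 set 2 and 4500 ± 328 CPM in WT29 set 1 (SD, n = 3 each). Against set 1, S2A (0.66 ± 0.12, adjusted p = 0.0016) and S2A-S7A (0.62 ± 0.09, adjusted p = 0.00046) rose and ALT-P6A fell (-1.01 ± 0.09, adjusted p = 1.4e-05). Set 2, which the labels name for ALT-P6A, was itself below set 1 in prl53. The ALT-P6A libraries, at 2170, 2180 and 2450 CPM, lay nearer to those of set 2 (2760, 2570 and 2730 CPM).

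SPNCRNA.1343 lies head to head with tgp1, which encodes a glycerophosphodiester transporter of the phosphate regulon. It held 5.68, 6.08 and 4.22 CPM in ALT-S5A and 4.70, 4.03 and 4.90 CPM in ALT-P6A, against 8.42, 11.7 and 9.06 CPM in WT29 set 2 and 20.1, 18.7 and 24.9 CPM in WT29 set 1. Both alleles were below all WT29 libraries. It fell by 0.89 ± 0.20 in ALT-S5A (adjusted p = 0.0055) and by 1.09 ± 0.17 in ALT-P6A (adjusted p = 0.00097) against set 2, where tgp1 rose by 4.08 ± 0.16 (adjusted p = 1.1e-08) and 4.09 ± 0.07 (adjusted p = 2.4e-09). The other alleles showed no fixed relation: in S2A-S7A tgp1 rose by 2.40 ± 0.12 against set 1 (adjusted p = 2.9e-06) with SPNCRNA.1343 at -1.27 ± 0.20 (adjusted p = 0.00084), but against set 2 it was at -0.13 ± 0.20 (adjusted p = 0.63). Of 5 coding genes known for a lncRNA that acts on them or lies beside them (pho1, pho84, tgp1, byr2 and mei2), 3 were called higher in ALT-S5A and 3 in ALT-P6A against set 2, namely pho1, pho84 and tgp1. In T4A pho1 (-3.64 ± 0.14, adjusted p = 1.9e-07) and pho84 (-3.05 ± 0.12, adjusted p = 1.9e-07) were called lower.

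In WT18, unlike in the 7 substitution alleles, more lncRNAs were called higher than lower. Against WT29 set 2, 163 of 447 tested lncRNAs were called higher and 21 lower (36.5 and 4.70%), where 24.8% of all genes were called higher and 11.7% lower, and the median log2 fold change was 0.85, against 0.05 over all genes tested. Against WT29 set 1, 136 of 453 were called higher and 19 lower, with 15.6% and 8.96% over all genes. Against both sets 102 of 440 were higher and 4 lower, with 13.0% and 4.85% over all genes. The 2 new libraries alone gave 245 higher and 33 lower, and the 2 earlier libraries alone 134 higher and 37 lower. The share of all genes called was not computed for these 2 fits, so their counts cannot be set against that of all genes. The count of 163 also rests on single control libraries, since 84 were called higher without WT29 set 2 replicate 4 and 95 without replicate 6. Of the 149 scarcest tested lncRNAs, 63 were called higher and 2 lower, and of the 149 most abundant, 39 higher and 7 lower. More lncRNAs passed the low-count filter here than in T4A and the ALT alleles against set 2 (368 to 395). A scarce lncRNA that is high only in WT18 enters the test, and one that is low throughout does not. The shares, the median and this split therefore hold for the lncRNAs tested and depend in part on the filter.

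The 4 largest rises in WT18, among lncRNAs called higher against both sets with a mean log2 CPM of 1 or more and no overlap with WT29, were unequal between its pairs of libraries. SPNCRNA.242, between kei1 and dap1, held 118 and 84.2 CPM in the new WT18 libraries and 10.8 and 2.90 CPM in the earlier ones, against 2.24, 2.36 and 2.44 CPM in WT29 set 2 (4.58 ± 1.27, adjusted p = 0.012). Without set 2 replicate 4 its change did not pass the test (4.53, adjusted p = 0.05). SPNCRNA.1511, beside pvg3, held 120 and 68.7 CPM in the new and 10.7 and 2.41 CPM in the earlier libraries, against 1.12, 1.09 and 0.828 CPM in WT29 set 2 (5.70 ± 1.40, adjusted p = 0.0071). SPNCRNA.513 held 18.4 and 14.4 CPM in the new and 1.66 and 1.79 CPM in the earlier libraries, against 0.102, 0.225 and 0.341 CPM in WT29 set 2 (5.36 ± 1.19, adjusted p = 0.0044). In all 3 the new libraries were far above the earlier ones, and both pairs above set 2. Of the coding neighbours, dap1 rose by 0.85 ± 0.23 (adjusted p = 0.011), kei1 fell by 0.66 ± 0.09 (adjusted p = 0.00046) and pvg3 fell by 1.22 ± 0.20 (adjusted p = 0.001).

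SPNCRNA.388 had the other order, with 3.04 and 2.66 CPM in the new and 19.9 and 54.5 CPM in the earlier WT18 libraries, against 0.102, 0.112 and 0.195 CPM in WT29 set 2 (7.16 ± 1.45, adjusted p = 0.0029). It lies between mat1-Mc, a gene of the mating-type locus, and SPBC23G7.10c, which rose with it (6.54 ± 0.52, adjusted p = 0.00017). The earlier libraries come from an h- strain and the new ones from an h+ strain. mat1-Mc itself had no count in any library. mfm2, a gene for the M-factor pheromone of h- cells, averaged 17 CPM over the WT18 libraries of both strains and at most 2.42 CPM in the other groups. That mean does not show which pair of WT18 libraries held mfm2. The part of mating type in the SPNCRNA.388 difference was not tested.

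By the same rule 4 lncRNAs fell in WT18, by less. SPNCRNA.1125 held 2.38 and 1.72 CPM in the new and 2.99 and 2.71 CPM in the earlier libraries, against 8.06, 8.20 and 8.04 CPM in WT29 set 2 (-1.69 ± 0.23, adjusted p = 0.00054). SPNCRNA.1296 held 11.8 and 9.97 CPM in the new and 11.7 and 14.4 CPM in the earlier libraries, against 35.6, 38.4 and 41.0 CPM in WT29 set 2 (-1.65 ± 0.15, adjusted p = 0.00019). SPNCRNA.1666 held 1.23 and 1.68 CPM in the new and 2.34 and 1.17 CPM in the earlier libraries, against 5.20, 4.49 and 4.97 CPM in WT29 set 2 (-1.57 ± 0.30, adjusted p = 0.0023). SPNCRNA.935 changed by -1.32 ± 0.28 (adjusted p = 0.0035). SPNCRNA.293, which does not meet the rule, fell against set 2 (-1.83 ± 0.29, adjusted p = 0.00098) and was higher than set 1 (1.02 ± 0.35, adjusted p = 0.035). nam3 rose in both pairs, at 15.4 and 9.78 CPM in the new and 19.6 and 16.6 CPM in the earlier libraries (2.34 ± 0.30 against set 2, adjusted p = 0.0004). Levels of omt3 (11.6 and 12.5 CPM new, 1.19 and 0.391 CPM earlier), SPNCRNA.472 (5.01 and 4.33, 0.645 and 0.489 CPM) and mrp1 (18.6 and 10.5, 1.53 and 1.14 CPM) went opposite ways from WT29 set 2 in the 2 pairs, and none passed the test over the 4 libraries.

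**Figure D5:**
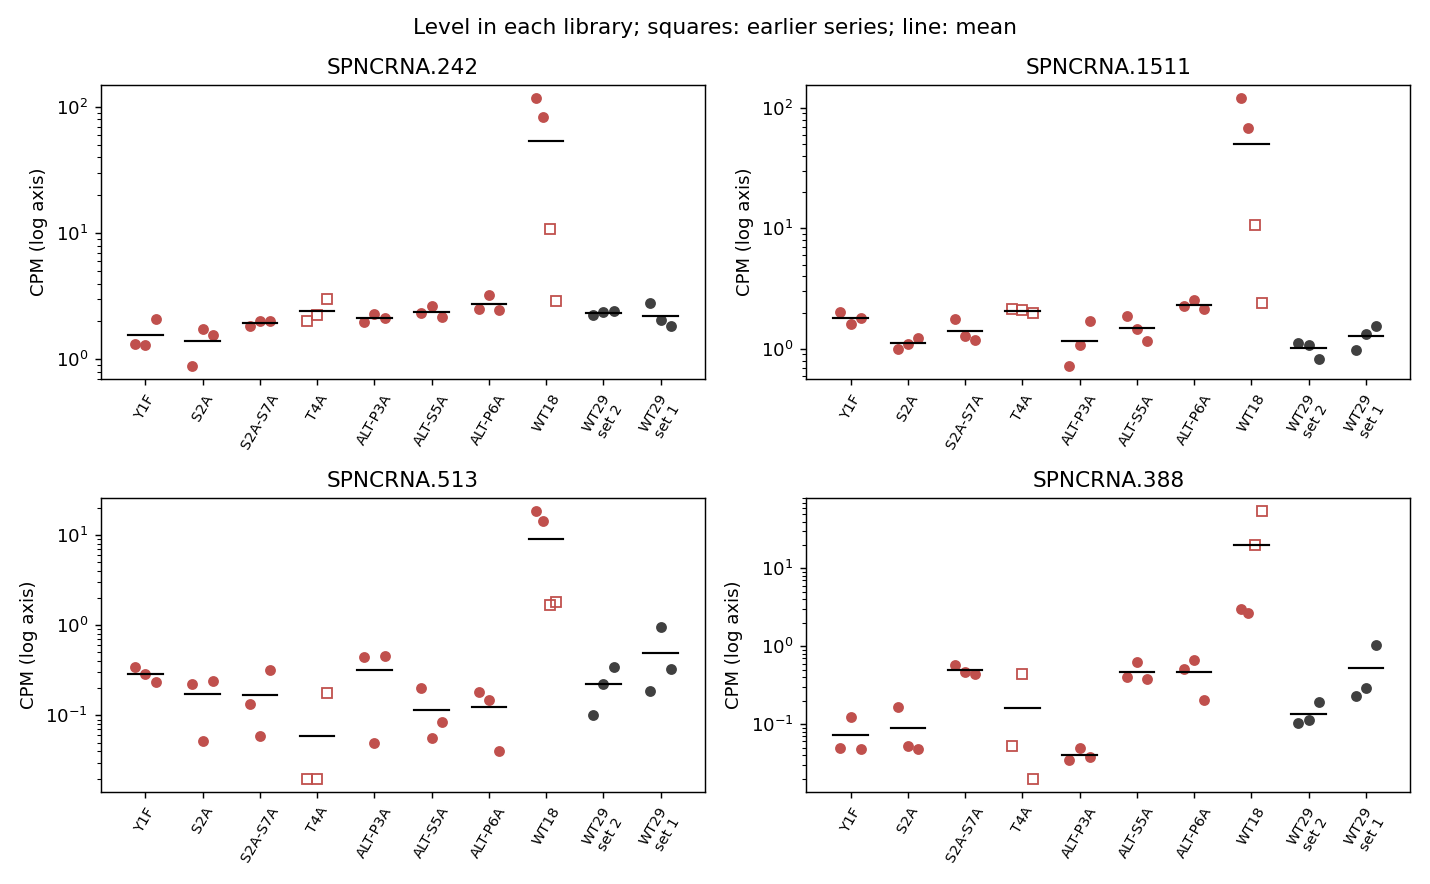
CPM of the 4 lncRNAs with the largest rise in WT18 among those called against both sets and not overlapping WT29, in each library on log axes, by group; circles are new libraries, squares libraries of earlier series and lines group means, and a count of 0 is drawn at 0.02 CPM. The new WT18 libraries are the higher pair in SPNCRNA.242, SPNCRNA.1511 and SPNCRNA.513 and the lower pair in SPNCRNA.388.

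The same WT29 strain measured as set 2 and as set 1 differed in many lncRNAs: 39 of 386 were called higher in set 2 and 37 lower (10.1 and 9.59%), where 5.03% of all genes were called higher and 3.86% lower. Among the abundant ones, SPNCRNA.111, next to ste11, averaged 71.7 ± 2.97 CPM in set 2 and 195 ± 29.7 CPM in set 1 (-1.44 ± 0.11, adjusted p = 1.9e-05; SD, n = 3 each). prl58 averaged 11.6 ± 0.219 CPM in set 2 and 35.0 ± 7.93 CPM in set 1 (-1.60 ± 0.18, adjusted p = 0.00021). SPNCRNA.995 averaged 15.9 ± 1.51 CPM in set 2 and 49.3 ± 9.68 CPM in set 1 (-1.63 ± 0.17, adjusted p = 0.00012). In all 7 substitution alleles SPNCRNA.111 was below set 1, from -1.01 ± 0.12 in S2A-S7A (adjusted p = 0.00022) to -1.91 ± 0.14 in S2A (adjusted p = 8.1e-06), and against set 2 it was between -0.48 ± 0.12 in S2A (adjusted p = 0.0074) and 0.46 ± 0.11 in S2A-S7A (adjusted p = 0.0047).

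Direct contrasts between alleles use no WT29 level as the reference. Each was fitted together with the WT29 set that both alleles share, which enters the filter, the scaling and the spread. Adding S7A to S2A raised 26 and lowered 14 of 383 tested lncRNAs (6.79 and 3.66%), where 1.60% of all genes were called higher and 2.56% lower; 9 were called lower without S2A replicate 3. Besides mrp1, omt3 was higher in S2A-S7A than in S2A (5.10 ± 0.56, adjusted p = 0.00036), as were SPNCRNA.472 (1.53 ± 0.17, adjusted p = 0.00036), SPNCRNA.919 (1.65 ± 0.41, adjusted p = 0.013) and meu3 (2.03 ± 0.39, adjusted p = 0.0044), and SPNCRNA.703 was not shown to differ (0.34 ± 0.17, adjusted p = 0.14). Between T4A and ALT-S5A, 25 of 394 lncRNAs were higher in T4A and 62 lower (6.35 and 15.7%), with 2.13% and 6.62% over all genes. Here nam3 was higher in T4A (2.40 ± 0.22, adjusted p = 1e-05), as was sme2 (1.30 ± 0.26, adjusted p = 0.0023), and omt3 (-2.75 ± 0.49, adjusted p = 0.0012) and meu3 (-1.94 ± 0.28, adjusted p = 0.0003) were lower. The T4A libraries come from another series and sequencer, which cannot be told apart from the allele.

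Among tested lncRNAs that overlap no coding gene and are not marked as a possible alternative UTR, the log2 fold change in the 7 substitution alleles went with that of the coding gene that lies head to head with them. The coefficient was r = 0.46 for Y1F (143 pairs), 0.51 for S2A (143) and 0.43 for S2A-S7A (142). It was 0.40 for T4A (139), 0.40 for ALT-P3A (152), 0.41 for ALT-S5A (152), 0.38 for ALT-P6A (151) and 0.19 for WT18 (185). For the possible alternative UTRs r with the divergent gene was between -0.09 and 0.18 in the 7 substitution alleles (55 to 57 pairs), and between -0.20 and 0.22 over the 16 or 17 that overlap no coding gene. With the next coding gene downstream on the same strand r was between 0.05 and 0.25, and with a coding gene overlapped on the opposite strand between -0.15 and 0.22. With a convergent gene r was 0.51 in S2A and 0.41 in S2A-S7A, and between -0.17 and 0.26 in the other alleles, over 42 to 57 pairs. Pairs are genes of the same libraries and are not independent replicates, so these are descriptions; SPNCRNA.472 with bfr1, SPNCRNA.293 with pfl7 and omt3 with mei2 are pairs of this kind.

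The genes of RNA decay and termination, 22 chosen from general knowledge, changed little in most alleles. None was called in S2A, T4A, ALT-P3A, ALT-S5A or ALT-P6A against the set the labels name, or in Y1F against set 1. In S2A-S7A 3 rose and 10 fell against set 1, and 3 of the 22 were called lower, where 9.61% of all genes were; against set 2 only 1 was called. The 3 were red5 (-1.18 ± 0.27, adjusted p = 0.0054), a factor of the Mmi1 elimination pathway, rrp6 (-1.11 ± 0.28, adjusted p = 0.0089), a nuclease of the nuclear exosome, and rhn1 (-1.18 ± 0.18, adjusted p = 0.00079), a CTD-binding termination factor. In WT18, where most lncRNA calls were higher, 11 of the 22 rose and 3 fell against set 2 over the 4 libraries. Of the 22, 6 were called higher, a share close to the 24.8% of all genes called higher in that comparison. They were ssu72 (1.42 ± 0.36, adjusted p = 0.0087), pir2 (1.90 ± 0.205, adjusted p = 0.00024), rrp6 (1.77 ± 0.33, adjusted p = 0.0021), red5 (1.59 ± 0.205, adjusted p = 0.00042), red1 (1.47 ± 0.15, adjusted p = 0.00021) and mtl1 (1.05 ± 0.17, adjusted p = 0.00094). Whether these changes and those of the lncRNAs are linked was not tested.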

How the data were processed

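Polyadenylated RNA of 10 groups was sequenced (31 libraries from 29 sample records, 15.2 to 35.8 M counts each, median 22.8 M). The deposited counts are raw reads per gene; per the submitters' processing notes, the authors used HISAT2 2.1.0, SAMtools, HTSeq 0.10.0 and DESeq2 on build ASM294v2. The authors' deposited tables hold log2 fold changes and adjusted p-values per allele. How strand was handled in counting is not given in the sources used here. Columns 4 to 6 of the controls were taken as WT29 set 2 by elimination, and the 2 earlier WT18 columns were mapped to their group only. The control libraries behind the authors' values for the set 2 alleles were not checked here.

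Genes passing filterByExpr in a comparison were fitted by edgeR 4.0.16 (R 4.3.3, limma 3.58.1) with TMM scaling and the quasi-likelihood test, tested on simulated data. Each fit held only the groups compared, and in the direct contrasts between alleles also the WT29 set that both alleles share. Calls need an adjusted p under 0.05 and at least 2-fold. Alternatives were DESeq2 1.42.0, its size factors, no low-count filter, the other control set, leaving out each library, each pair of WT18 libraries, and a replicate block. The lncRNAs named are omt3 and mrp1, those with a known name (prl, meu, sme2, ter1, srp7, rrk1, nam1 and the like), the 10 with the highest CPM, the 10 called in 1 direction in the most alleles, and per allele up to 4 rises and 4 falls that were the largest among those called against both sets, a mean log2 CPM of 1 or more and all allele libraries on 1 side of all WT29 libraries. nam2 was added after its values were seen. The members and lists were chosen with earlier results of these data known. Neighbours and exon lengths come from ASM294v3 by ID; since its build differs from that of the files, no coordinates or sequences were used. Of the comparisons checked, only S2A-S7A against S2A had same-numbered deviations that correlated above 0.1 in every replicate, at 0.54, 0.15 and 0.27. The labels do not pair these libraries.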

Additional observations from a re-analysis of the deposited data

Results flagged for a closer look

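Of 25 lncRNAs whose 4 WT18 libraries were checked for a single library far from the rest, 1 had one. SPNCRNA.935, an RNA that fell in WT18, held 2.21 CPM in an earlier WT18 library, against 1.49 to 1.56 CPM in the other WT18 libraries and 3.57 to 5.54 CPM in WT29 set 2. All 4 WT18 libraries lay below WT29 set 2. With 25 lncRNAs checked, 1 library set apart in this way can arise by chance.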

How the results depend on the processing

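Of the counts of calls recomputed under each alternative, 236 stayed within 1.5 times the count reported and 14 moved further. The number called higher was 34 in Y1F with WT29 set 2 as control. In ALT-P3A it was 25 without WT29 set 2 replicate 5, and with set 1 as control it was 29 higher and 38 lower (30 and 37 with a replicate block); 13 were lower without ALT-P3A replicate 2. In WT18 245 were higher and 33 lower with the new libraries alone, 37 lower with the earlier ones alone, and 84 and 95 higher without set 2 replicates 4 and 6. In S2A-S7A against S2A 9 were lower with the DESeq2 Wald test and 9 without S2A replicate 3.

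Leaving out each library gave these ranges of higher and lower calls: Y1F 20 to 29 and 65 to 89, S2A 30 to 38 and 79 to 115, S2A-S7A 31 to 35 and 79 to 104, T4A 25 to 37 and 89 to 112, ALT-P3A 8 to 25 and 13 to 24, ALT-S5A 21 to 30 and 47 to 59, ALT-P6A 20 to 31 and 66 to 73, WT18 84 to 172 and 16 to 25, set 2 against set 1 37 to 53 and 31 to 52, S2A-S7A against S2A 18 to 33 and 9 to 17, and T4A against ALT-S5A 22 to 30 and 45 to 74.

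The direction of 15 single values turned. With the other control set mrp1 was at 0.22 in S2A, -0.15 in T4A and -0.99 in ALT-P3A, and omt3 at 0.12 in S2A-S7A, -1.15 in ALT-S5A and -1.42 in ALT-P6A; SPNCRNA.1316 was at 0.25 and SPNCRNA.293 at 1.02 in WT18. With a replicate block against set 1, mrp1 was at -0.16 in T4A and -0.98 in ALT-P3A, and omt3 at -1.32 in ALT-S5A and -1.46 in ALT-P6A. With the earlier WT18 libraries alone omt3 was at -1.44, SPNCRNA.472 at -1.55 and mrp1 at -1.75. In S2A-S7A against S2A, where same-numbered libraries deviated alike though no label pairs them, the block gave 26 higher and 15 lower. No paired fit was made against WT29 set 2, since its replicate numbers differ. Why the 15 values turned was not tested. Of the 830, 361 passed the low-count filter in no comparison and so gave no test.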
